A study of Mus musculus with 12 samples.

Results

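DNA microarray values of 10 genes of DNA replication licensing and nucleotide supply were followed in mouse back skin treated with minoxidil (MXD) or with a cactus extract (N-CE). The genes were Mcm2, Mcm3, Mcm4, Mcm5, Mcm6, Mcm7, Cdc6, Pcna, Rrm2 and Tyms. They were found by the gene name in the array files, which gave 15 probes of 41174 and 10 gene names of 27373. Male C57BL/6 mice, aged 8 weeks, were shaved on the back, and from the next day on 3% MXD, 10% N-CE or the vehicle (VC) was applied there at 200 µL per day. MXD was the positive control, N-CE was a cell extract of Notocactus ottonis obtained by low-temperature vacuum extraction, and VC was a mixture of propylene glycol, ethanol and water. Skin was taken at 1W, 2W and 3W (weeks 1, 2 and 3). RNA of whole back skin from 6 mice was pooled per group and week, so each group at each week was 1 pool without a biological replicate.

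A treated pool and the VC pool of the same week were set against each other on 2 arrays, the Cy3 and Cy5 labels being swapped on the second. This gave 12 arrays and 6 comparisons. The SD given below is over the 2 arrays of a dye swap (n = 2) and measures technical spread alone. The 4 arrays of a week shared a slide, a scan and a VC pool, so that week and slide cannot be told apart. The share of transcript spots well above background ran from 57.0% to 65.0% for Cy3 and from 61.3% to 69.6% for Cy5. Across probes above background in both groups on both arrays, the log2 folds of the 2 arrays of a swap correlated at 0.57, 0.71 and 0.26 for MXD in weekly order. For N-CE they correlated at 0.60, -0.17 and 0.35, so the swap of N-CE at 2W did not repeat over the probes as a whole. The arrays of MXD at 2W and N-CE at 1W correlated at -0.41 and -0.49 in the 2 dye orientations over 21401 probes, and the direction is that of the dyes in the labels.

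Before a cell copies its DNA, Cdc6 and the origin recognition complex load a ring of the proteins Mcm2 to Mcm7 onto each origin, which licenses it. The ring later becomes the motor of the replicative helicase. Pcna is the sliding clamp that holds the polymerases on DNA, Rrm2 is the small subunit of ribonucleotide reductase, which makes deoxyribonucleotides, and Tyms makes thymidylate. In skin these genes are used by dividing cells such as those of the hair matrix, the interfollicular basal layer and the growing follicle. In pooled whole skin, fewer dividing cells and less RNA per cell cannot be told apart.

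Several of these genes are textbook targets of E2F factors, so the promoter windows of RefSeq (GRCm38.p6, 250 bases before to 50 after the start) were read for them. Windows were held for 9 of the 10 genes, with Mcm4 as the exception. The letters TTTCCCGC, TTTCGCGC, TTTGCCGC and TTTGGCGC were searched on both strands, and matches may overlap. At least 1 match was found in 5 genes, Mcm3, Mcm5, Mcm6, Mcm7 and Cdc6, against 2.26% of 32851 windows. No match was found for Mcm2, Pcna, Rrm2 and Tyms. The letters CCAAT, also on both strands, were found in 7 of the 9 genes against 37.4% of all windows, with Cdc6 and Tyms as the genes without them. These matches describe letters and were not measured as binding. The 250 bases before the start of Mcm6 and Mcm5 are shown because each holds an overlapping pair of matches, and 30 bases around the first match are shown for Mcm7, Cdc6 and Mcm3, with the matches in capitals.
Mcm6, chr1:128359706-128359955, minus strand: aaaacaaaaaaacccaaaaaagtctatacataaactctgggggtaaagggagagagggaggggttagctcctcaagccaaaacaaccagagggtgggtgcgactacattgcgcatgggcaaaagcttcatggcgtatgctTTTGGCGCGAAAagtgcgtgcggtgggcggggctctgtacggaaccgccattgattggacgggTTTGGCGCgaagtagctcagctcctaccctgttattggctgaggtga
Mcm5, chr8:75109259-75109508, plus strand: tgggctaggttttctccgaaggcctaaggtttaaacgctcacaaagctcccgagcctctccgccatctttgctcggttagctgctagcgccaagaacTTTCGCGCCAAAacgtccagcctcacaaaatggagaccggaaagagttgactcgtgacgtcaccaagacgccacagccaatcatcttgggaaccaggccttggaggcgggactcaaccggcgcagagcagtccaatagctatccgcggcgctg
Mcm7, chr5:138172030-138172059, minus strand: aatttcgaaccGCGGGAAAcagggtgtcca
Cdc6, chr11:98908002-98908031, plus strand: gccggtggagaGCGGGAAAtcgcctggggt
Mcm3, chr1:20820265-20820294, minus strand: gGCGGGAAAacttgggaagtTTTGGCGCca
In Mcm6 the overlapping matches started 110 and 106 bases before the start site and a further match 47 bases before it. In Mcm5 they started 153 and 149 bases before it. The matches of Mcm3 lay after the start site, from base 20 to 27 and from base 39 to 46. Mcm7 had a second window without a match.

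The values pointed in opposite directions at 1W. In MXD all 10 genes were above VC on both arrays at every week, and their median log2 fold was 0.29 ± 0.02, 0.51 ± 0.03 and 0.23 ± 0.01 in weekly order. In N-CE all 10 were below VC on both arrays at 1W, with a median of -0.53 ± 0.10. At later weeks the N-CE medians were above VC, at 0.18 ± 0.01 over the 9 genes measured at 2W and 0.24 ± 0.09 at 3W. The medians of all genes tested lay between -0.01 and 0.03 in the 6 comparisons. Above VC on both arrays were 31.6%, 36.0% and 27.5% of all genes tested in MXD in weekly order, and below VC on both arrays were 29.1% in N-CE at 1W. In N-CE the share above VC on both arrays was 21.3% at 2W, where 6 of 9 of these genes were, and 28.1% at 3W, where 7 of 10 were.

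**Figure D1:**
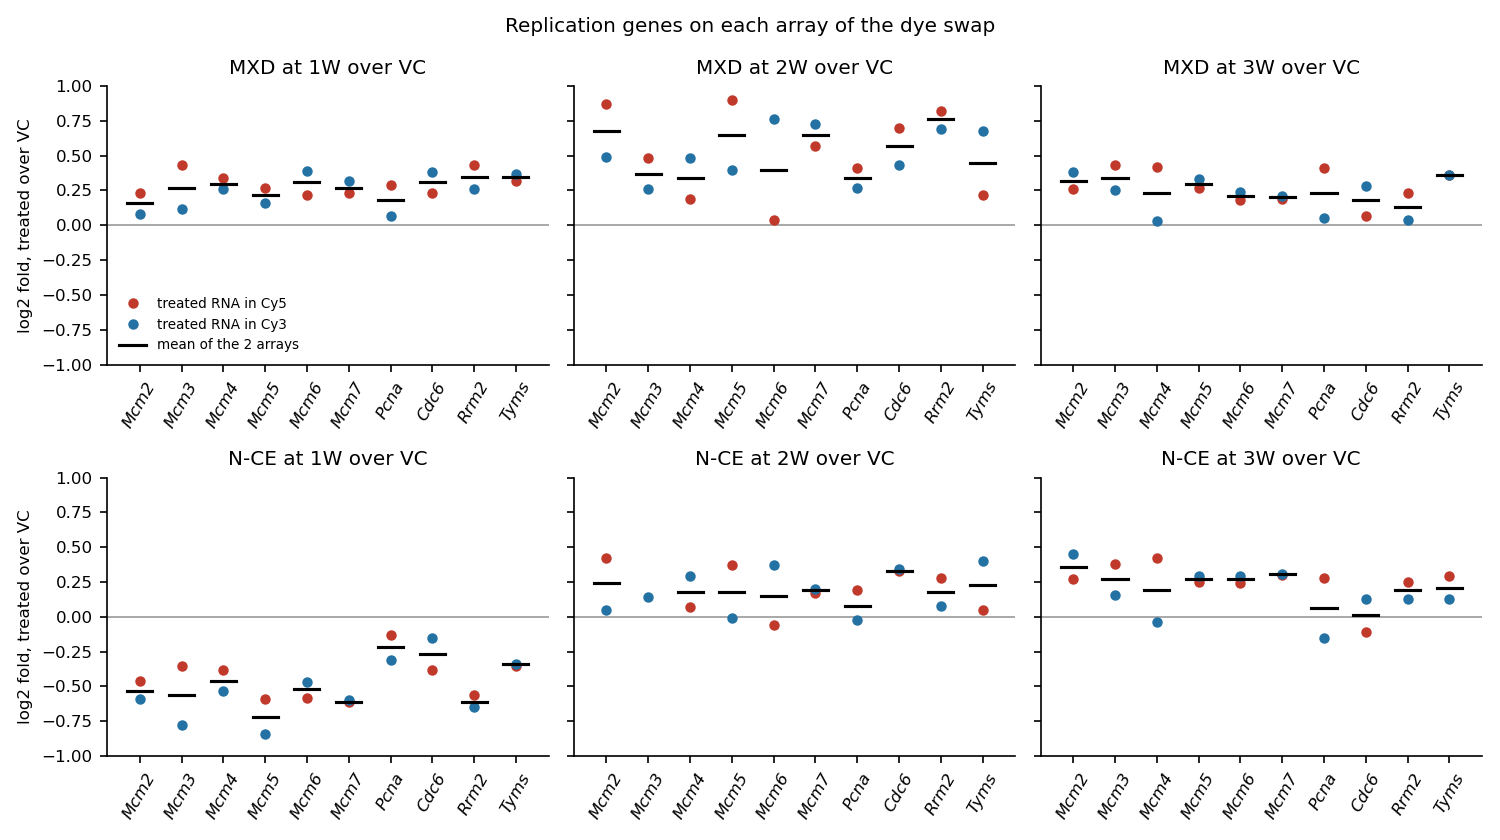
Log2 fold of treated over VC (vertical axis) for the 10 genes (horizontal axis) in the 6 comparisons; red and blue points are the arrays with treated RNA in Cy5 and in Cy3, and black lines are their means. All points of MXD lie above 0 and all points of N-CE at 1W lie below 0; Mcm3 has 1 point and no mean in N-CE at 2W.

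A gene was called where both arrays of the swap had the same sign, each with an error-model P of Feature Extraction under 0.01, and the mean fold was above 1.5 or below 0.75. By this rule Mcm7 and Rrm2 rose in MXD at 2W, 2 of 10 genes, where 6.21% of all 18753 genes tested rose and 10.0% fell. Mcm5, Mcm7 and Rrm2 fell in N-CE at 1W, 3 of 10 genes, where 2.78% of all 18234 genes tested fell and 0.543% rose. None of the 10 was called in the other 4 comparisons. The shares of all genes called up and down there were 1.25% and 1.26% in MXD at 1W, 0.293% and 0.287% in MXD at 3W, 0.118% and 0.0752% in N-CE at 2W, and 0.209% and 0.214% in N-CE at 3W. By the fold alone, without the P, 4 genes passed upward in MXD at 2W (Mcm2, Mcm5, Mcm7 and Rrm2) beside 11.8% of all genes. At 1W in N-CE 7 passed downward by the fold alone (the 6 Mcm genes and Rrm2) beside 8.53% of all genes. The 3 genes short of that fold in N-CE at 1W were Pcna, Cdc6 and Tyms. With normexp and loess the same 7 genes passed by the fold alone, beside 3.61% of all genes. In MXD at 2W 3 genes passed upward that way, Mcm5, Mcm7 and Rrm2. The share of all genes was not counted there, so these 3 cannot be set beside it. On a single array, by its own P and fold, 4 genes rose in MXD at 2W on either array, beside 12.8% of all genes on the first and 10.1% on the second. For falls in N-CE at 1W the single arrays gave 4 genes beside 4.23% of all genes on the first and 5 genes beside 4.61% on the second.

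Of the helicase ring, Mcm7 gave the closest dye swaps. The Mcm7 probe (mm9 chr5:138605925-138605984) read log2 folds of 0.57 and 0.73 in MXD at 2W, a mean of 0.65 ± 0.12 or 1.57-fold. At 1W in N-CE it read -0.61 and -0.60, a mean of -0.61 ± 0.01 or 0.656 of VC. Both changes were called, and the 2 arrays of each swap lay close together. At the other weeks Mcm7 was at 0.27 ± 0.07 and 0.20 ± 0.01 in MXD and at 0.19 ± 0.02 and 0.31 ± 0.01 in N-CE, none of them called.

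Mcm5 (mm9 chr8:77651350-77651410) had the lowest value of the 10 genes in N-CE at 1W. Its arrays read -0.59 and -0.84, a mean of -0.72 ± 0.17 or 0.609 of VC, which was called. In MXD at 2W they read 0.90 and 0.40, a mean of 0.65 ± 0.36. The fold of 1.57 in MXD at 2W matched that of Mcm7, but the P of the second array was 0.0547 and the gene was not called. In MXD Mcm5 was at 0.22 ± 0.08 at 1W and 0.30 ± 0.04 at 3W, and in N-CE at 0.18 ± 0.27 at 2W and 0.27 ± 0.03 at 3W.

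Mcm2 (mm9 chr6:88833619-88833678) was likewise above the fold threshold in MXD at 2W and not called. The arrays read 0.87 and 0.49 there, a mean of 0.68 ± 0.27. With normexp and loess that mean was 0.51, short of the fold. The N-CE arrays at 1W read -0.46 and -0.59, a mean of -0.53 ± 0.09, with a P of 0.0279 on the first array. At 3W the values of Mcm2 were near each other in both treatments, 0.32 ± 0.09 in MXD and 0.36 ± 0.13 in N-CE. Mcm2 was at 0.16 ± 0.10 in MXD at 1W, the lowest of the 10 genes there.

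For Mcm6 (mm9 chr1:130228178-130228237) the dye swap of MXD at 2W disagreed most. Its arrays read 0.04 and 0.76, a mean of 0.40 ± 0.50. The N-CE arrays at 1W read -0.58 and -0.47, a mean of -0.52 ± 0.07. Treated RNA in Cy3 gave the higher fold in all 6 swaps of Mcm6, by 0.05 to 0.71.

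Mcm4 (mm9 chr16:15624372-15624431) was at 0.34 ± 0.21 in MXD at 2W and at -0.46 ± 0.11 in N-CE at 1W. Its arrays read 0.42 and 0.03 in MXD at 3W and 0.42 and -0.04 in N-CE at 3W, so the sign at 3W in N-CE depended on the array. A second Mcm4 probe was well above background on no array and gave no measured value.

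Mcm3 had a bright probe (mm9 chr1:20793119-20793178) and a dimmer one whose positions span mm9 chr1:20795363-20795879. The bright probe was at 0.37 ± 0.16 in MXD at 2W and at -0.56 ± 0.31 in N-CE at 1W, where its arrays read -0.35 and -0.78. Its spot was marked as an outlier on the first array of N-CE at 2W, so that comparison was left without a mean and its remaining array read 0.14. The dimmer probe was at 0.52 ± 0.21, -0.48 ± 0.10 and 0.12 ± 0.05 in these 3 comparisons. The 2 probes had the same sign in every comparison with both arrays.

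Cdc6, the loader of the ring, was measured by a brighter probe (mm9 chr11:98782573-98782632) and a dim one. The brighter probe read 0.70 and 0.43 in MXD at 2W, a mean of 0.57 ± 0.19, just short of the fold threshold. Its N-CE values at 1W were -0.38 and -0.15, a mean of -0.27 ± 0.16. That mean was -0.15 with normexp and loess, and -0.67 when the dim probe was averaged in. Cdc6 had the highest value of the genes measured in N-CE at 2W, 0.33 with an SD that rounded to 0.00, and the lowest at 3W, 0.01 ± 0.16. The dim probe (mm9 chr11:98785169-98785228) read log2 ratios of 1.02 and 1.23 in MXD at 2W and passed the call rule. VC was not well above background there, which leaves a change of at least 1.1-fold on the scaled levels. The reference for it on each array was the higher of the VC reading and the lowest VC signal well above background. On the dim probe neither N-CE nor VC was well above background at 1W, and no fold is given.

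Pcna, the clamp, had the value nearest 0 in N-CE at 1W, -0.22 ± 0.12. Its probe (mm9 chr2:132075420-132075557) was printed 10 times per array. In MXD at 2W the 10 copies read 0.38 to 0.44 with treated RNA in Cy5 and 0.25 to 0.29 with treated RNA in Cy3. In N-CE at 1W they read -0.17 to -0.09 and -0.33 to -0.28. The SD over the copies of an array was 0.01 to 0.02, while the 2 arrays of a swap differed by 0.14 to 0.42, always with the higher fold when treated RNA was in Cy5. The spread over the copies was thus smaller than the difference between the arrays of every swap. No copy reached the P threshold on any array. In N-CE at 2W and 3W the 2 arrays of Pcna had opposite signs, with means of 0.08 ± 0.15 and 0.06 ± 0.30.

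**Figure D2:**
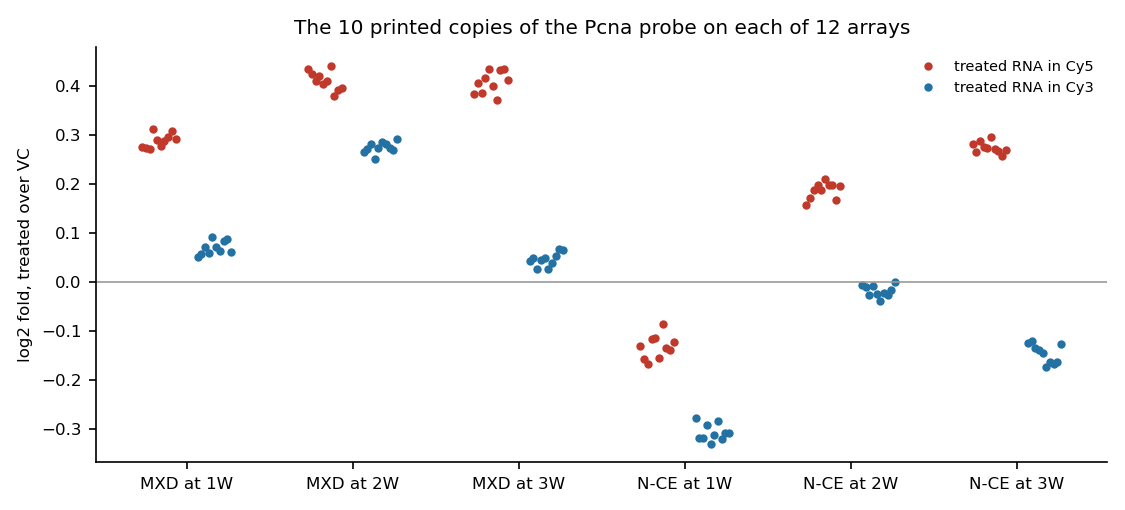
Log2 fold of treated over VC (vertical axis) for each of the 10 copies of the Pcna probe on 12 arrays, grouped by comparison (horizontal axis) and coloured by the dye of the treated RNA. Copies of an array lie together with an SD of 0.01 to 0.02, and the arrays with treated RNA in Cy5 lie above those with treated RNA in Cy3 in all 6 swaps.

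Rrm2, the reductase subunit, had the highest value of the 10 genes in MXD at 2W. Its probe (mm9 chr12:25398619-25398674) read 0.82 and 0.69 there, a mean of 0.76 ± 0.09 or 1.69-fold. Its N-CE values at 1W were -0.56 and -0.65, a mean of -0.61 ± 0.06 or 0.657 of VC. Rrm2 and Mcm7 were the genes called in both. In MXD at 3W Rrm2 had the lowest value of the 10, 0.13 ± 0.13, and in N-CE it was at 0.18 ± 0.14 at 2W and 0.19 ± 0.08 at 3W.

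Tyms had 3 probes, and the brightest and the second share 40 bases. They are shown because their agreement is not independent, with the shared bases in capitals.
Tyms brightest probe: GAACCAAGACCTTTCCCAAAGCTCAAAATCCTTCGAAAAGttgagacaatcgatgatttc
Tyms second probe: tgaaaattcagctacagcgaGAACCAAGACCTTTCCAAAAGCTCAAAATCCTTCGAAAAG
Inside the shared bases they differ by 1 substitution, C17A (the base of the brightest probe, its position counted from 1 at the 5′ end of that probe, then the base of the second). The brightest probe (mm9 chr5:30387605-30387664) read 0.22 and 0.68 in MXD at 2W, a mean of 0.45 ± 0.33, and -0.35 and -0.34 in N-CE at 1W, a mean of -0.34 with an SD that rounded to 0.00. The second probe was at 0.50 ± 0.32 and -0.35 ± 0.13. It lacked a mean in MXD at 1W, where its spot was marked as an outlier on 1 array. The positions of the second probe span 894 bases of mm9 for its 60 bases, which skips chr5:30387665-30388498. The third probe (mm9 chr5:30387873-30387932) lies within the skipped stretch. It was dim, and its arrays had opposite signs in 4 of 6 comparisons, as in MXD at 2W with -0.32 and 0.86. The array also carries a probe for the Tyms pseudogene, and cross-hybridization between the pseudogene and the Tyms probes was not tested.

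Over time, the mean fold of all 10 genes in MXD was highest at 2W, and the share of all genes with that order was not counted. The folds of all genes in MXD were also spread widest at 2W. Their quartiles were -0.34 and 0.32 there, -0.16 and 0.15 at 1W, and -0.10 and 0.10 at 3W. For Mcm3 the MXD means were 0.37 ± 0.16 at 2W and 0.34 ± 0.12 at 3W. Both arrays at 2W lay above all arrays at 1W and 3W for 5 of 10 genes, Mcm2, Mcm5, Mcm7, Cdc6 and Rrm2, as they did for 20.3% of all genes. In N-CE both arrays at 1W lay below all arrays at 2W and 3W for 8 of 9 genes, as they did for 17.0% of all genes. Pcna was the gene that overlapped, and Mcm3 lacked an array. Both N-CE arrays lay below VC at 1W and above it at 2W for 6 of 9 genes, beside 12.1% of all genes. They lay below it at 1W and above it at 3W for 7 of 10 genes, beside 14.2% of all genes.

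Weeks served as replicates in limma fits over the 3 weekly folds. The spread in these fits includes change over time, and folds of opposite sign at different weeks, as in N-CE, cancel in the mean. A high p from them therefore does not show that a gene was unchanged at a single week. For MXD the mean over weeks was 0.25 to 0.41 for the 10 genes, highest for Rrm2 (0.41, SE 0.16) and lowest for Pcna (0.25, SE 0.05). The adjusted p of limma was 0.626 for each of the 10 genes. The fit called 0 of 41068 probes, 0% of those tested, with 3098 probes and 7 of the 10 genes at an unadjusted p under 0.05. For N-CE the means over weeks were -0.09 to 0.03 with an adjusted p of limma of 1 for each of 9 genes. That fit also called 0 probes, with 1490 probes and none of the 9 genes at an unadjusted p under 0.05, and Mcm3 could not be fitted.

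The treatments were compared directly as MXD minus N-CE at each week, in which the shared VC pool cancels. At 1W the difference was 0.40 for Pcna to 0.95 for Rrm2, with a combined SD of 0.03 to 0.38. Both MXD arrays lay above both N-CE arrays at 1W for 10 of 10 genes, as they did for 25.1% of all genes. Above VC on both MXD arrays and below VC on both N-CE arrays at 1W were 10 of 10 genes and 13.4% of all genes. At 2W both MXD arrays lay above both N-CE arrays for 6 of 9 genes, beside 21.7% of all genes. The differences at 2W were 0.16 for Mcm4 to 0.58 for Rrm2, with a combined SD of 0.12 to 0.59. For Mcm4, Mcm6 and Tyms the combined SD at 2W was larger than the difference. At 3W both MXD arrays lay above both N-CE arrays for Tyms alone, 1 of 10 genes, beside 17.6% of all genes. The differences at 3W were -0.11 for Mcm7 to 0.17 for Cdc6, with a combined SD of 0.02 to 0.43. Over the 3 weeks the mean difference was 0.27 to 0.49 for 9 genes, with an adjusted p of limma between 0.75 and 0.751. This fit called 0 of 40820 probes, with 2021 probes and 1 of the 9 genes, Pcna, at an unadjusted p under 0.05.

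**Figure D3:**
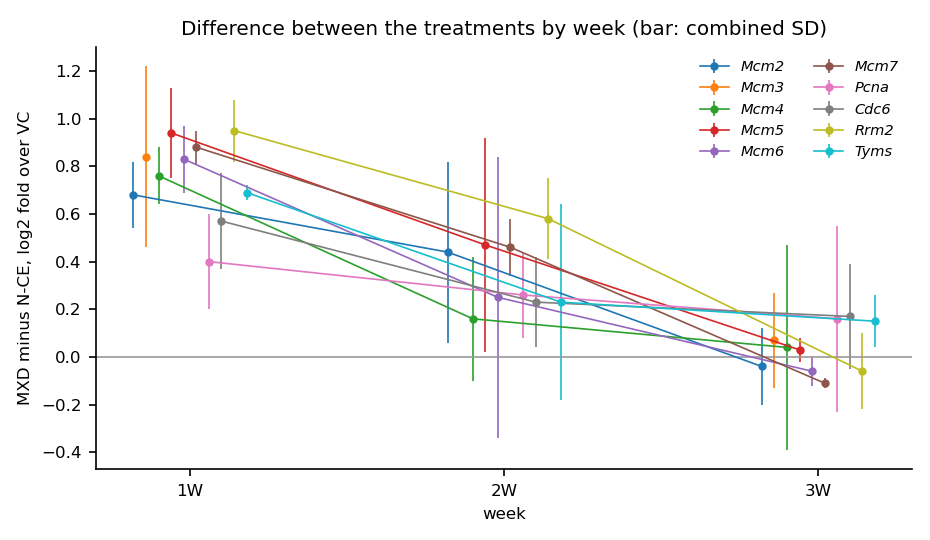
MXD minus N-CE in log2 fold over VC (vertical axis) at 1W, 2W and 3W (horizontal axis) for the 10 genes; bars are the SDs of both dye swaps combined. The points run from 0.40 to 0.95 at 1W and from -0.11 to 0.17 at 3W; Mcm3 has no point at 2W.

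Levels in VC skin were read on 4 arrays per week, as log2 intensity after quantile scaling over all arrays. The level of Rrm2 in VC was 9.10 at 1W (4 readings from 9.04 to 9.21) and 9.34 at 2W (9.26 to 9.47). By 3W it was 9.72 (9.56 to 9.83). Rrm2 was the gene of the 10 whose VC readings at 3W did not overlap those at 1W, beside 14.1% of all genes with every reading at 3W above those at 1W and 21.5% with every reading below. The difference between these weeks was 0.62, and 0.69 when the processed signal was scaled to its 75th percentile instead. For the other 9 genes the difference in VC level ran from -0.42 to 0.21 and the readings overlapped. The VC level of Mcm2 ranged from 8.64 to 10.37 over the 4 readings of the same pool at 1W, the widest range of the 10 genes at that week.

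The wider replication machinery and its G1/S control were followed with 7 lists of 100 other genes. The lists hold genes that promote and genes that restrain replication, such as Samhd1, and were not split by this. In MXD at 2W 86 of 100 were above VC, 18 rose and 1 fell, beside 52.1% of all genes above VC, 6.21% called up and 10.0% called down. Below VC in N-CE at 1W were 81 of 99 tested, 14 fell and none rose, beside 47.0% of all genes below VC, 2.78% called down and 0.543% called up. No gene of the 7 lists was called in the other 4 comparisons. The median log2 fold over the lists was 0.36 ± 0.09 in MXD at 2W, -0.29 with an SD that rounded to 0.00 in N-CE at 1W, and 0.14 to 0.16 in the other 4 comparisons.

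In origin licensing (12 genes), Mcm10, a scaffold of the starting fork, rose by 0.94 ± 0.21 in MXD at 2W and fell by 1.30 on the log2 scale (SD 0.30) in N-CE at 1W. It was the gene of that list called in either. The lowest in MXD at 2W was Orc3, an origin recognition subunit, at -0.21 ± 0.30, and the highest in N-CE at 1W was Orc5 at 0.23 ± 0.16. In helicase activation (14 genes), Ticrr, Recql4 and Timeless rose in MXD at 2W. With normexp and loess Ticrr was at 0.40 and Recql4 at 0.39, both short of the fold, and Timeless at 0.95. Timeless, a fork protection protein, was highest at 1.21 ± 0.18 and Gins2 lowest at 0.02 ± 0.14. Of 13 tested in N-CE at 1W, Ticrr and Timeless fell, with Ticrr lowest at -1.07 ± 0.15 and Gins4 highest at 0.13 ± 0.23. With normexp and loess Ticrr was at -0.26, short of the fold, and Timeless was lowest at -0.73.

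Among polymerases and primase (12 genes), Pole, the catalytic subunit of polymerase epsilon, rose by 0.79 ± 0.18 in MXD at 2W and was at -0.78 ± 0.19, a called fall, in N-CE at 1W. Pole3 was lowest in MXD at 2W at -0.11 ± 0.06, and Pold4 highest in N-CE at 1W at 0.14 ± 0.24. Of clamp loading and Okazaki fragment genes (13), Lig1 and Chtf18 rose in MXD at 2W and Chtf18 fell in N-CE at 1W. Chtf18, part of an alternative clamp loader, was at 1.01 ± 0.12 and -0.82 ± 0.01, the latter -0.54 with normexp and loess, where Lig1 was then lowest at -0.69. Rpa1 was lowest in MXD at 2W at -0.15 ± 0.22, and Rpa3 highest in N-CE at 1W at 0.21 ± 0.02.

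Of the other nucleotide supply genes (26), Tk1, Dut, Cad, Ctps and Nme1 rose and Samhd1 fell in MXD at 2W, and Tk1 and Ctps fell in N-CE at 1W. Ctps, which makes CTP, was at 1.19 ± 0.25 and -1.35 ± 0.11. Samhd1, which breaks deoxyribonucleotides down, ran the other way, at -0.87 ± 0.18 and 0.35 ± 0.04, the latter not called. In G1/S control (17 genes), E2f2, E2f7, E2f8, Ccne1 and Ccna2 rose in MXD at 2W, and E2f2, E2f3, Ccna2 and Skp2 fell in N-CE at 1W. E2f7 (0.55 in MXD at 2W) and Skp2 (-0.29 in N-CE at 1W) fell short of the fold with normexp and loess. E2f2 was highest in MXD at 2W at 1.08 ± 0.22, and Ccna2 lowest in N-CE at 1W at -1.14 ± 0.11. E2f1 was the lowest of that list in MXD at 2W and the highest in N-CE at 1W, at 0.15 ± 0.26 and 0.15 ± 0.49, and at 0.07 and 0.01 with normexp and loess.

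In replication-coupled chromatin (6 genes), Uhrf1, which recruits the maintenance methyltransferase, was at 1.10 ± 0.21 and called in MXD at 2W, and at -1.11 ± 0.06 and called in N-CE at 1W. Chaf1a and Chaf1b fell in N-CE at 1W as well. The lowest of this list in MXD at 2W was Hells at 0.48 ± 0.57, and the highest in N-CE at 1W was Dnmt1 at -0.35 ± 0.11, neither called. A mitosis list (12 genes) had medians of 0.93 ± 0.02 in MXD at 2W, where 11 rose, and -1.09 ± 0.07 in N-CE at 1W, where 11 fell. Its members Top2a, at 1.24 ± 0.01, and Aurkb, at -1.59 ± 0.13, were the highest in the former and the lowest in the latter, and Bub1 was at the other end of both, at -0.08 ± 0.33 and 0.11 ± 0.08. With normexp and loess Aurkb was at -1.01 in N-CE at 1W, where Birc5 was then lowest at -1.22, and Cdk1 in MXD at 2W, at 0.52, fell short of the fold.

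**Figure D4:**
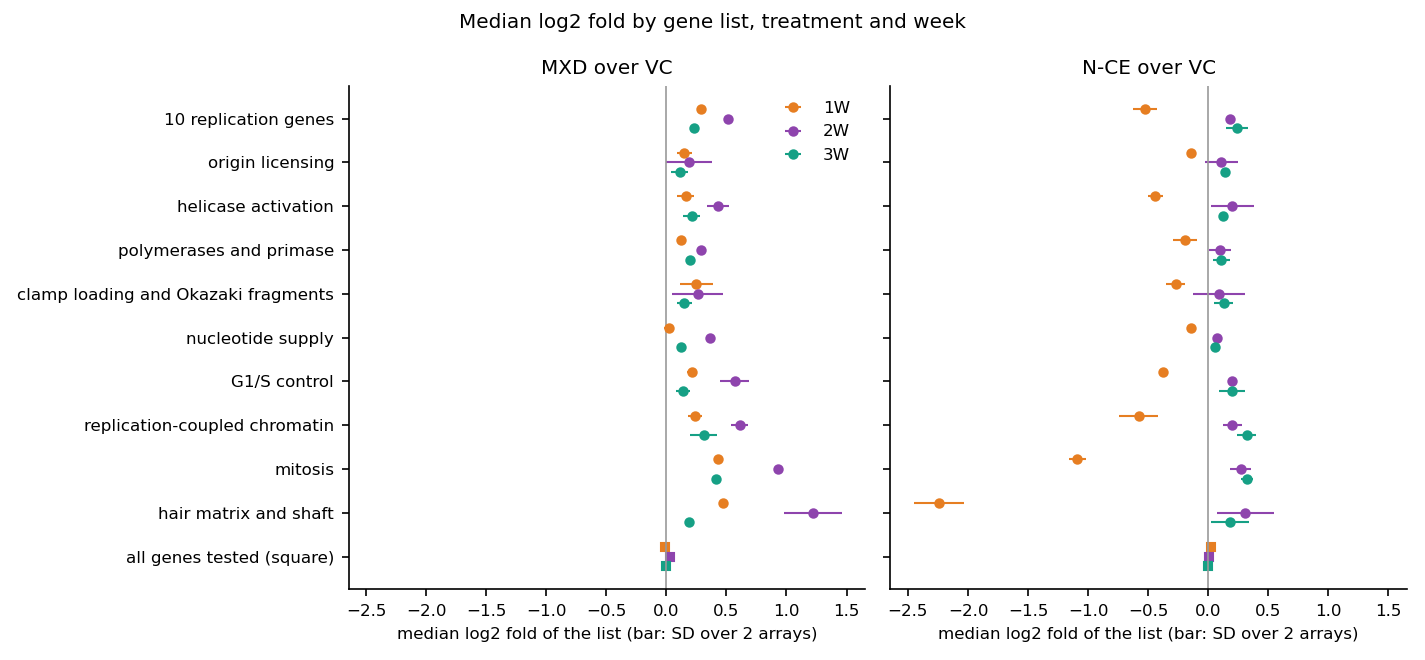
Median log2 fold over VC (horizontal axis) of the 10 genes, the 7 replication lists, the mitosis list and the hair matrix and shaft list (vertical axis), for both treatments by week; bars are the SD of the medians of 2 arrays and squares are all genes tested. The 10 genes lie at 0.51 in MXD at 2W and -0.53 in N-CE at 1W, nearer 0 than mitosis (0.93 and -1.09) and hair matrix and shaft (1.22 and -2.24).

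Markers of the cell types in skin were read beside these values. The hair matrix and shaft list was called as a whole, 12 of 12 up in MXD at 2W and 12 of 12 down in N-CE at 1W, with medians of 1.22 ± 0.24 and -2.24 ± 0.21. Its summed intensity was 133257 to 190390 in VC, 28366 in N-CE at 1W and 312189 in MXD at 2W. Shh was the marker of that list not well above background in N-CE at 1W. The melanocyte list had medians of 1.27 ± 0.16 and -1.80 ± 0.20 in the same comparisons, and its marker Tyr was below background in VC of 5 comparisons. Basal epidermis had medians of -0.20 ± 0.32 and -0.06 ± 0.18, and wound-activated epidermis 0.90 ± 0.37 and -0.52 ± 0.26. Skeletal muscle was at -1.46 ± 0.34 in MXD at 2W, with 7 of 7 called down, and at -0.12 ± 0.08 in N-CE at 1W. Fibroblast, adipocyte and endothelium lists were at -0.82 ± 0.15, -0.68 ± 0.01 and -0.39 ± 0.14 in MXD at 2W and at 0.04 ± 0.13, 0.31 ± 0.15 and 0.28 ± 0.16 in N-CE at 1W. T cell, myeloid and B and plasma cell lists were at -0.56 ± 0.70, -0.32 ± 0.25 and -0.36 ± 0.04 in the former and at 0.45 ± 0.12, 0.27 ± 0.17 and 0.14 ± 0.03 in the latter. The T cell list held calls both ways in MXD at 2W, Cd4 up and Cd3d and Cd3g down, and its median was -0.08 there and 0.26 in N-CE at 1W with normexp and loess. The myeloid list also held calls both ways in MXD at 2W, S100a8 up at 0.96 and Lyz2 down at -0.88. In N-CE at 1W S100a9 was the myeloid marker called, up at 1.09. The B and plasma cell medians rested on 3 and 2 of 4 genes, none of them called, and were -0.12 and -0.01 with normexp and loess. The part of these shifts in the values of the 10 genes was not tested.

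By pattern, 15621 genes above background in both groups of all 6 comparisons were ranked by their root mean square difference from the median profile of the 9 genes measured throughout. Outside the 10 genes and the lists, the closest were Hoxb3, Nop56, Kpna2, Ttf2, Rhno1, Ndc1, Enkd1, a probe named only by a transcript identifier, Fam171a2 and Oip5, at differences of 0.05 to 0.07. Hoxb3 read 0.51 in MXD at 2W and -0.53 in N-CE at 1W, against 0.57 and -0.52 in the median profile. Mcm7 was the nearest of the 9 genes to that profile, at 0.06, and Pcna the farthest, at 0.18. Of the 200 closest of the 15621 genes, 7 were among the 9 that set the profile, so their closeness to it was built in. A further 21 were in the replication, mitosis or marker lists. The number of list genes ranked was not counted, so no share can be set beside the 21.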

How the data were processed

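The 12 arrays (Agilent whole mouse genome, 2 colours) held 45018 spots each, 43379 for transcripts. The authors made the files with Agilent Feature Extraction, version 12.0.3.1 in the file headers and 11.0.1.1 in the submitters' processing notes. The deposited log10 ratio sets Cy5 over Cy3 and follows background subtraction and a LOWESS correction of the dyes. The p-value deposited beside it is that of the software's error model for a spot, not for mice. Raw and processed intensity were deposited for both channels. The deposited matrix, when checked, matched the log ratio of processed intensities within 1e-05. The folds given here came from the software's own log ratio instead. Over transcript spots the matrix correlated with it at 0.7858 and 0.802 on the arrays of N-CE at 3W. On the other arrays the correlation was 0.9678 to 0.9997. Of the columns, 0 belong to samples outside the series. No spot was saturated, the number of arrays limits the precision, and probe positions are on mm9.

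Calculations used R 4.3.3 with limma 3.58.1, Python 3.11.15, numpy 2.4.6 and pandas 2.3.3. Control and outlier spots (143 to 355 per array) were left out, all ratios were given as log2 of treated over VC, and copies of a probe were averaged, their P by the median. The probe of highest mean processed signal stood for a gene, and a gene was tested where it was well above background in either group on at least 1 array. The study states the P of 0.01 and the folds of 1.5 and 0.75 used for calls. That both arrays of a swap must pass the P with the same sign was set here. Levels came from normexp (offset 50), loess and Aquantile. limma used Benjamini-Hochberg adjustment over all probes. Its step was tested on simulated folds with independent weeks and a constant shift, which does not test the use of weeks as replicates.

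Named are the 10 genes, the highest and lowest gene of each pathway list in MXD at 2W and N-CE at 1W among genes above background in both groups, called genes of those lists, and the 10 genes closest by pattern. The genes and lists were chosen with earlier results of these data known. The 2 arrays of a swap share their pools, so the SD and the error-model P measure technical spread. Alternatives covered the P, the folds, normexp with loess, a filter on dim probes, outlier spots kept, all probes of a gene, the matrix values, each array or week left out, the slide as a random block and the scaling of levels.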

Additional observations from a re-analysis of the deposited data

Results flagged for a closer look

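At 1W every array of MXD was above VC and every array of N-CE below VC for each of the 10 genes, and for 13.4% of all genes. The difference MXD minus N-CE at 1W was 0.68 for Mcm2, 0.84 for Mcm3, 0.76 for Mcm4, 0.94 for Mcm5, 0.83 for Mcm6 and 0.88 for Mcm7 on the log2 scale. It was 0.40 for Pcna, 0.57 for Cdc6, 0.95 for Rrm2 and 0.69 for Tyms.

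Within N-CE, every array at 1W was below VC and every array at 2W above it for 6 of 9 genes, beside 12.1% of all genes. The difference 1W minus 2W was -0.76 for Mcm2, -0.64 for Mcm4, -0.80 for Mcm7, -0.60 for Cdc6, -0.78 for Rrm2 and -0.57 for Tyms. The same held between 1W and 3W for 7 of 10 genes, beside 14.2% of all genes, with differences of -0.88 for Mcm2, -0.83 for Mcm3, -0.98 for Mcm5, -0.79 for Mcm6, -0.91 for Mcm7, -0.80 for Rrm2 and -0.55 for Tyms. None of these differences at a single week or between weeks was tested, as each group is 1 pool, and week and slide cannot be told apart.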

How the results depend on the processing

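The median log2 fold of the 10 genes kept its sign in each of 42 values from 7 alternatives in 6 comparisons. The matrix values, the filter on dim probes and outlier spots kept repeated the main medians and single-gene values at the precision given. Those alternatives therefore add little to the counts of this paragraph. With normexp and loess it was 0.26 in MXD at 1W and 0.41 in MXD at 2W, and with the mean over all probes of a gene 0.25 and 0.55. With 1 array of each swap alone it was 0.26 to 0.28, 0.49 to 0.53 and 0.24 to 0.26 in MXD in weekly order, and -0.56 to -0.42, 0.17 to 0.19 and 0.15 to 0.27 in N-CE. Without the P, 4 genes rose in MXD at 2W and 7 fell in N-CE at 1W. Normexp and loess with folds alone gave 7 falls as well but 3 rises, without Mcm2. With either array alone 4 genes were called up in MXD at 2W, beside 10.1% of all genes without the first array and 12.8% without the second. Those were Mcm6, Mcm7, Rrm2 and Tyms without the first array and Mcm2, Mcm5, Cdc6 and Rrm2 without the second. At 1W in N-CE 5 genes were called down without the first array and 4 without the second, beside 4.61% and 4.23% of all genes. Of the replication lists, 23 genes fell in N-CE at 1W by normexp and loess with folds alone, beside 3.61% of all genes. By the fold and P 14 fell. In MXD at 2W 16 rose by normexp and loess with folds alone, against 18 by the fold and P. The share of all genes that rose in that setting was not counted, so the 16 cannot be set beside it. By the fold alone without normexp and loess that share was 11.8%, against 6.21% by the fold and P. These counts of list genes differ in the P as well as in the normalization, which were not separated. With the slide as a random block, limma called 2 probes for MXD, none of them of the 10 genes, whose lowest adjusted p was 0.234. The limma counts stayed at 0 in the other alternatives, each week left out included. Of 413 values of single genes, 9 were at 0 or had the other sign, 8 of them in N-CE at 2W or 3W, and none belonged to a called change. No paired analysis was possible because the replicate numbers name the 2 arrays of a swap and pair no pools; the fit of MXD minus N-CE was paired by week. The cause of these shifts was not tested. Signal over background limits the second probes of Mcm4 and Cdc6 and the third probe of Tyms. With the mean over all probes, N-CE at 1W was -0.23 for Mcm4, -0.67 for Cdc6 and -0.19 for Tyms.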
